A study of Mus musculus with 17 samples.

Results

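All libraries from mice given either of 2 related compounds by oral gavage were compared with the libraries from untreated mice. The libraries were chosen by the treatment named in the labels: 5 vindeburnol libraries and 6 VB-127 libraries, 11 of the 17 libraries in all, against 6 untreated libraries. The mice were C57BL/6 males with no genetic modification named in the labels, and the tissue is labelled locus coeruleus, in the brainstem. Each compound was dissolved in water and given at 20 mg/kg in 0.1 ml once a day for 5 days, with collection 24 hours later. No age is given, and no group received water by gavage, so the compounds and the gavage itself cannot be told apart. Whether every library is a separate animal is not said in the labels, so every p-value below measures the spread between libraries.

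Vindeburnol is a synthetic compound related to alkaloids of the periwinkle plant. VB-127 is labelled a derivative of vindeburnol. The locus coeruleus is a small nucleus of noradrenergic neurons that projects widely through the brain. Its neurons make noradrenaline with dopamine beta-hydroxylase (Dbh) and take it back up with the transporter Slc6a2. A pooled comparison of this kind asks what the compounds, or the handling they share, have in common.

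Expression was given as TPM, a measure of transcript abundance that is corrected for gene length and sums to 1 fixed total per library. TPM keeps no read depth, so the number of reads behind a value is not known, and precision was judged only from the spread between libraries. The number of genes detected above 0 ran from 21016 to 26993. It averaged 22646.5 ± 779 (SD, n = 6) in untreated and 24022.5 ± 1548 (SD, n = 11) in gavaged libraries (exact permutation p = 0.0613, adjusted p = 0.307 over 5 library measures). The tissue label was checked against noradrenergic markers: the median over all libraries was 1.08 TPM for Dbh, 0.300 TPM for Slc6a2 and 0 for Phox2a. These genes were near 0 in most libraries, and Dbh was high only in untreated replicates 1 and 6, at 18.9 and 12.3 TPM. Markers of other neurons were higher, with medians of 45.5 TPM for the dopaminergic Slc6a3 and 74.2 TPM for the serotonergic Tph2. In untreated libraries Slc6a3 ran from 1.04 to 73.8 TPM and Tph2 from 33.2 to 129 TPM. In gavaged libraries Slc6a3 ran from 15.2 to 124 TPM and Tph2 from 1.08 to 102 TPM. In tissue, fewer cells of a type and less RNA per cell cannot be told apart. One short RNA, Bc1, took 24.5% ± 5.90 (SD, n = 6) of the untreated total and 21.2% ± 4.86 (SD, n = 11) of the gavaged total, a difference with an exact permutation p of 0.230 (adjusted p = 0.383 over 5 library measures). Untreated replicate 4 was highest at 35.3%, and without it the difference went from -3.33 to -1.18 percentage points. Because every TPM library sums to the same total, a library with less Bc1 shows more of other genes. The median tested gene was 0.10 higher in the gavaged libraries on the log2(TPM + 1) scale, and this shift fell to 0.01 after each library was rescaled by its median ratio to the average library. Untreated replicate 4 stood lowest among the libraries, with its genes at a median of -0.31 relative to each gene's median over all libraries.

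A single gene passed the test in the pooled comparison. Actb, which encodes the cytoskeletal protein beta-actin and is widely used as a reference gene, rose in the gavaged libraries. It was the only call among 16153 genes tested with limma (Benjamini-Hochberg adjusted p under 0.05), which is 0.00619% of them, and no gene was called lower. Actb (ENSMUSG00000029580) was at 444, 531, 567, 575, 568 and 580 TPM in the untreated libraries. It was at 691, 650, 714, 726 and 703 TPM after vindeburnol, and after VB-127 the lowest, median and highest libraries were at 639, 689 and 752 TPM. The lowest gavaged library thus lay above the highest untreated one, and untreated replicate 1 lay well below the other untreated libraries. The means were 544 ± 52.0 TPM (SD, n = 6) and 695 ± 35.5 TPM (SD, n = 11), a difference of 0.36 on the log2 scale (SE 0.0545) with a limma adjusted p of 0.0287. Without untreated replicate 1 the difference was 0.30 and the call was kept (limma adjusted p = 0.0317). It was lost without untreated replicate 2 or 3, vindeburnol replicate 1, 3, 4 or 5, or VB-127 replicate 1, 3 or 5 (limma adjusted p-values of 0.0555 to 0.133). The call was lost after median-ratio scaling, where the difference was 0.25 (limma adjusted p = 0.411), and it was kept in 13 of 32 alternatives, over which the adjusted p ranged from 0.0208 to 0.411.

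Between the compounds Actb differed by 0.01 on the log2 scale (vindeburnol minus VB-127), with a 95% interval from -0.13 to 0.15. Its close relative Actg1, which encodes gamma-actin, was at 800 ± 46.2 TPM (SD, n = 6) in untreated and 893 ± 49.6 TPM (SD, n = 11) in gavaged libraries. That difference of 0.16 did not pass the test (limma adjusted p = 0.263), and after median-ratio scaling it was 0.05. Among 16 genes of actin and its binding proteins, 12 had a higher mean after gavage, close to the share of 76.8% over all genes tested, and their median difference of 0.10 was also that of all genes tested. After median-ratio scaling the list's median was 0.00, and 8 of the 16 were higher.

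No gene but Actb passed the test, and 76.8% of all tested genes had a higher mean after gavage. At an unadjusted p under 0.05, 1915 genes were higher in the gavaged libraries (11.9%) and 132 were lower (0.817%). The direction of this split depended on the scaling: after median-ratio scaling 828 genes were higher (5.13%) and 767 lower (4.75%), with no gene called. Of the genes at an unadjusted p under 0.05, 93.6% were higher as deposited, 51.9% after median-ratio scaling, 48.03% after quantile normalization and 66.4% when TPM was recomputed without Bc1 and mitochondrial genes. Without untreated replicate 4, 1139 genes were higher and 184 lower. Of the differences below, those given as median-ratio values are relative to the median gene, and the others are as deposited.

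Complete separation of the arms was rare. For 7 of the 16153 genes (0.0433%) every gavaged library lay above every untreated one, and for none did every gavaged library lie below. The 7 were Actb, Kyat1, Adgrb2, Ntng2, Slc8a2, Btbd2 and Chpf. Kyat1, an aminotransferase of the kynurenine pathway, ranged from 8.16 to 12.0 TPM in untreated and from 12.6 to 16.9 TPM in gavaged libraries. Ntng2, a netrin-G protein anchored at neuronal membranes, ranged from 9.43 to 13.1 TPM in untreated and from 13.6 to 22.7 TPM in gavaged libraries. The sodium/calcium exchanger Slc8a2 ranged from 9.59 to 14.6 TPM and from 15.02 to 20.1 TPM in the same order. In each of these genes the arms were apart by less than the range within either arm. None but Actb passed the test: the log2 differences were 0.39 for Kyat1, 0.43 for Ntng2, 0.31 for Slc8a2, 0.28 for Btbd2 and 0.20 for Chpf, with limma adjusted p-values of 0.233 to 0.286. After median-ratio scaling 5 genes lay wholly higher (0.031%) and 4 wholly lower (0.0248%), and of the 7 Ntng2 alone was among them.

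**Figure D1:**
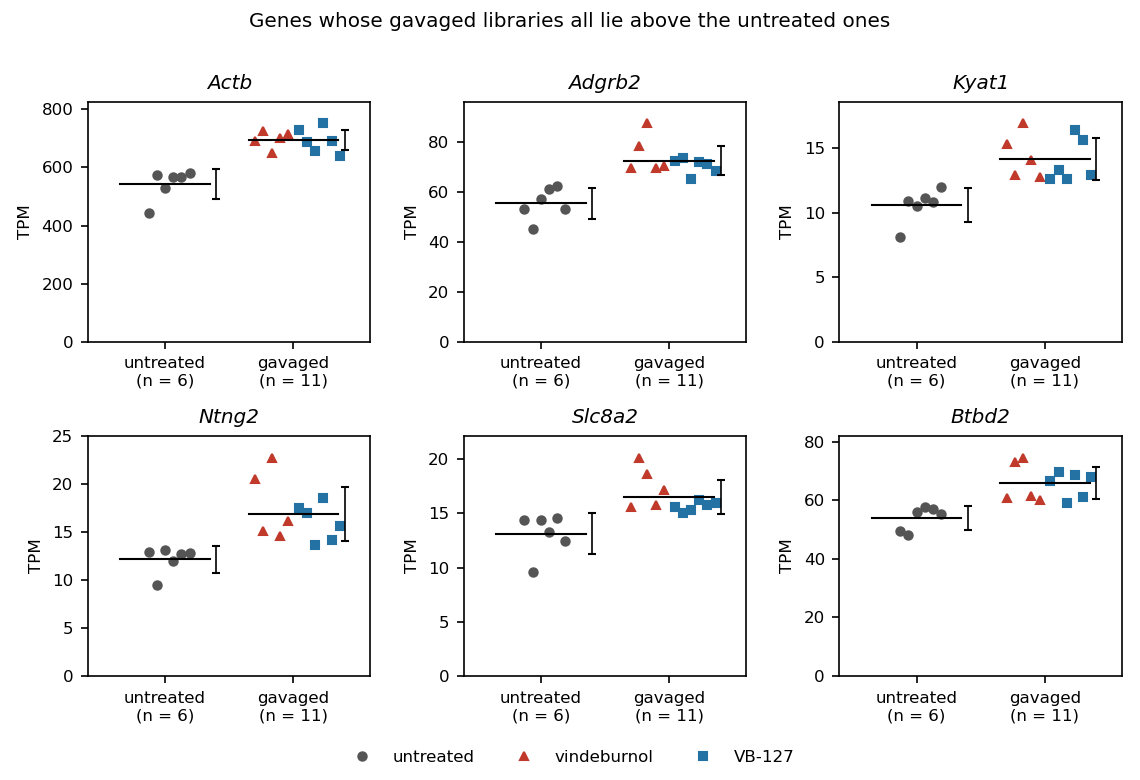
TPM per library for 6 of the 7 genes without overlap, for untreated (n = 6) and gavaged libraries (n = 11, vindeburnol as triangles and VB-127 as squares), with a line at each mean and a bar of 1 SD beside it. Every gavaged point lies above every untreated point, and in Actb untreated replicate 1 lies lowest at 444 TPM.

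The genes next to Actb by p on the higher side did not pass the test. Adgrb2 (ENSMUSG00000028782), a brain-enriched adhesion receptor of the G-protein-coupled class, had a lowest, median and highest value of 45.4, 55.3 and 62.6 TPM in untreated libraries. In gavaged libraries these were 65.3, 71.5 and 87.6 TPM, so the arms did not overlap. The difference was 0.39 on the log2 scale (SE 0.0726, limma adjusted p = 0.224) and 0.28 after median-ratio scaling. Trim28, a corepressor that binds zinc-finger transcription factors, was at 62.4 ± 8.87 TPM (SD, n = 6) and 85.3 ± 10.01 TPM (SD, n = 11), a difference of 0.45 (0.34 after median-ratio scaling). Lmtk3, a membrane kinase of neurons, differed by 0.46, Ift140, a carrier subunit of cilia, by 0.47, and Ints1, of the Integrator complex that processes small nuclear RNAs, by 0.40. All 11 gavaged libraries lay above the untreated mean for each of these genes, with limma adjusted p-values of 0.232 or 0.233.

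Both partner proteins of the enzyme that builds linear ubiquitin chains were among the 12. Sharpin was at 41.9 ± 6.86 TPM (SD, n = 6) and 61.3 ± 8.94 TPM (SD, n = 11), a difference of 0.54, with 10 of 11 gavaged libraries above the untreated mean. Rbck1 differed by 0.34, with 11 of 11 above (limma adjusted p = 0.232 for both). The catalytic subunit Rnf31, looked up after these values were seen, was at 12.4 ± 2.45 and 13.7 ± 1.62 TPM, a difference of 0.14 (limma adjusted p = 0.583). Cln8, a cargo receptor that carries lysosomal enzymes out of the endoplasmic reticulum, had the widest difference of the 12 at 0.72. Its untreated values ran from 6.24 to 14.9 TPM with a median of 6.95 TPM, and its gavaged values from 9.61 to 18.9 TPM with a median of 15.1 TPM. Cln8 passed the test without untreated replicate 6 (limma adjusted p = 0.0308). Sbf1, a phosphatase-like regulator, differed by 0.41 in all libraries and passed at 0.51 without untreated replicate 5 (limma adjusted p = 0.0242). Sharpin passed at 0.61 without VB-127 replicate 4 (limma adjusted p = 0.0198).

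On the lower side no gene passed the test, and the genes with the smallest p included Chat, Lcn2, Sdf2l1 and Ly86. Chat, which makes acetylcholine, was at 6.90, 5.95, 4.16, 4.27, 4.88 and 9.71 TPM in the untreated libraries. After vindeburnol it was at 2.84, 1.19, 1.08, 5.44 and 2.91 TPM, and after VB-127 its lowest, median and highest values were 1.20, 3.08 and 4.34 TPM. None of the 11 gavaged libraries reached the untreated mean, though the arms overlapped. The means were 5.98 ± 2.11 TPM (SD, n = 6) and 2.84 ± 1.40 TPM (SD, n = 11), a log2 difference of -0.90 (SE 0.232, limma adjusted p = 0.237) and -0.99 after median-ratio scaling. Without untreated replicates 1 and 6, the pair with high Dbh, it was -0.68.

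The other tested genes of cholinergic neurons had lower means too. Slc5a7, the choline transporter, differed by -0.62, Slc18a3, which loads acetylcholine into vesicles, by -0.43, and Prph, an intermediate filament of such neurons, by -0.39. Of the 4 members tested, 3 reached an unadjusted p under 0.05 on the lower side, against 0.817% of all genes, and the list's median was -0.53. That median was -0.25 without untreated replicates 1 and 6. In that setting 1 member reached an unadjusted p under 0.05 on the lower side, against 0.563% of all genes. The summed level of the 4 genes ran from 18.05 to 62.6 TPM in untreated and from 13.6 to 32.6 TPM in gavaged libraries. Gal, a neuropeptide found in many locus coeruleus neurons, was highest in untreated replicates 1 and 6, at 7.67 and 7.53 TPM, and no other untreated library exceeded 3.46 TPM. In the gavaged libraries it was at 0.727 to 3.56 TPM, a difference of -0.81 (limma adjusted p = 0.263) that was -0.44 without those replicates. Dbh behaved in the same manner, with -1.48 in all libraries (limma adjusted p = 0.303) and -0.51 without them. Of the 8 noradrenergic genes tested, 6 had a lower mean and 2 a higher one, up to 0.64, and the list's median was -0.17. On the lower side 2 of the 8 reached an unadjusted p under 0.05, against 0.817% of all genes. Without untreated replicates 1 and 6 that number was 0 and the median was -0.28. How far the amount of noradrenergic and cholinergic cells in each dissection took part in these values was not tested.

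**Figure D2:**
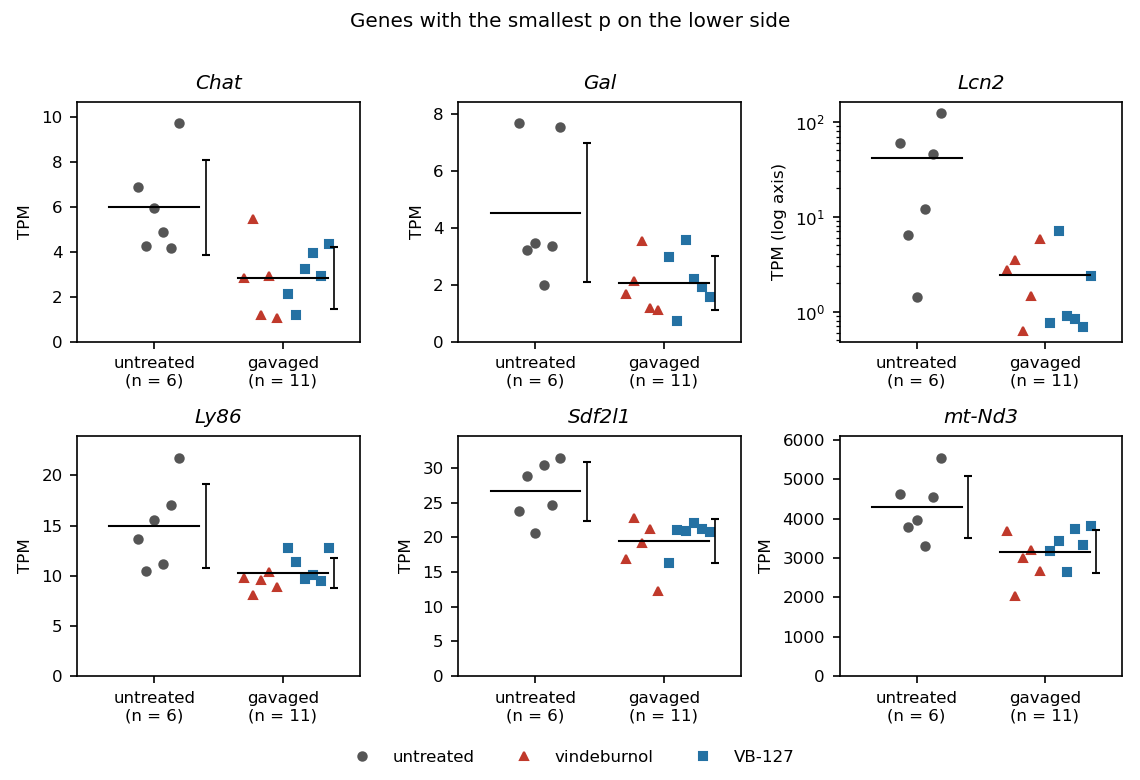
TPM per library for 6 genes from the lower side, for untreated (n = 6) and gavaged libraries (n = 11, vindeburnol as triangles and VB-127 as squares), with a line at each arithmetic mean and, on the linear axes, a bar of 1 SD. Lcn2 is on a log axis and spans 1.43 to 126 TPM in untreated libraries against 0.625 to 7.00 TPM in gavaged ones.

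Lcn2 (ENSMUSG00000026822), a secreted iron-siderophore binding protein of neutrophils and reactive glia, showed the widest difference of any tested gene on the lower side. It was at 60.5, 1.43, 46.3, 6.35, 11.9 and 126 TPM in the untreated libraries, and its gavaged lowest, median and highest values were 0.625, 1.47 and 7.00 TPM. All gavaged libraries lay below 4 of the 6 untreated ones, and untreated replicates 2 and 4 were within the gavaged range. The log2 difference was -2.85 (SE 0.704, limma adjusted p = 0.237) and -1.81 without untreated replicates 1 and 6. S100a8 and S100a9, calcium-binding proteins of neutrophils, differed by -0.88 and -1.16, and S100a9 and Lcn2 reached an unadjusted p under 0.05. Of 10 neutrophil genes listed only these 3 reached the expression filter, and their median was -1.16, or -0.66 without untreated replicates 1 and 6. Their summed level was 3.03 to 153 TPM in untreated and 0.625 to 10.7 TPM in gavaged libraries. Ccl12, a chemokine for monocytes, was at 2.41 ± 1.21 TPM (SD, n = 6) and 0.911 ± 0.784 TPM (SD, n = 11), a difference of -0.83 (limma adjusted p = 0.285).

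The upstream sequences of Adgrb2 and Lcn2 are shown because Adgrb2 was next to Actb by p on the higher side and Lcn2 had the widest difference on the lower side. Each line gives the 250 bases before the transcription start, 5′ to 3′ in the gene's sense, from RefSeq on GRCm38.p6, which is not the GRCm39 build of the files. The Adgrb2 window is chr4:129984620-129984869 on the plus strand, and the Lcn2 window is chr2:32387740-32387989 on the minus strand.
Adgrb2: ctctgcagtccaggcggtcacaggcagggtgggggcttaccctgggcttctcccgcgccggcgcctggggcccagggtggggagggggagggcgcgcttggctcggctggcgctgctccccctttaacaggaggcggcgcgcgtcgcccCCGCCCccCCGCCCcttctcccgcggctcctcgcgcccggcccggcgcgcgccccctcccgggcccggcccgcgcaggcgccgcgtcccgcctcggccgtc
Lcn2: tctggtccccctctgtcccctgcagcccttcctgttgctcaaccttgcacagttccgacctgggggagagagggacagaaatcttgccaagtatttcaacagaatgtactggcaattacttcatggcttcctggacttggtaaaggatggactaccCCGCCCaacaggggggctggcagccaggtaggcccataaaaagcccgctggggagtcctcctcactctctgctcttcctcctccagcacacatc
Capitals mark the GC box GGGCGG on either strand, with 2 matches for Adgrb2 and 1 for Lcn2, and this motif is in 32.7% of the 32851 windows of this length. The TATA box TATAAA was searched on both strands and did not match in either window, and 12.4% of windows hold it. The Adgrb2 window is 81.6% G or C and the Lcn2 window 56.4%, beside a median of 52.4% over all windows. A match describes the letters of the window and not a site in use.

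Ly86, a surface partner of the Toll-like receptor relative RP105 on myeloid cells, ranged from 10.5 to 21.8 TPM in untreated and from 8.11 to 12.7 TPM in gavaged libraries, a difference of -0.48 (limma adjusted p = 0.237). After median-ratio scaling it was -0.57. Of 11 microglial genes 8 had a lower mean and 3 reached an unadjusted p under 0.05 on that side, namely Ly86, Ctss and C1qa, against 0.817% of all genes, and the list's median was -0.17. Without untreated replicate 6 that median was -0.08. After median-ratio scaling 8 of the 11 reached it, against 4.75% of all genes. The identity markers P2ry12, Tmem119 and Csf1r had differences of 0.12, 0.01 and 0.11. Gfap, the intermediate filament of reactive astrocytes, was at 144 ± 32.9 TPM (SD, n = 6) and 104 ± 24.4 TPM (SD, n = 11), a difference of -0.47 (limma adjusted p = 0.284). Slc7a10, an amino acid transporter of astrocytes, went the other way with 36.1 ± 4.19 and 45.5 ± 5.98 TPM, a difference of 0.32 (limma adjusted p = 0.261) that was 0.22 after median-ratio scaling.

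Sdf2l1, part of a chaperone complex of the endoplasmic reticulum, was at 26.6 ± 4.24 TPM (SD, n = 6) and 19.5 ± 3.14 TPM (SD, n = 11), a difference of -0.43 (limma adjusted p = 0.237). In the list of 14 genes of the unfolded protein response, 10 had a lower mean, with a median of -0.06, and Sdf2l1 alone reached an unadjusted p under 0.05. After median-ratio scaling 6 of the 14 reached it on the lower side, against 4.75% of all genes, with a median of -0.16. Of 12 heat shock genes 10 had a lower mean, with a median of -0.16, and Hspa1b and Hspe1 reached an unadjusted p under 0.05, against 0.817% of all genes on that side. After median-ratio scaling 9 of the 12 reached it on that side, against 4.75% of all genes, with a median of -0.26. Hspa1b differed by -0.93 (limma adjusted p = 0.292), but it shares near-identical sequence with Hspa1a, whose difference was -0.31, so the split of reads between the pair is uncertain. Without untreated replicate 6 the heat shock median was -0.07, and without untreated replicates 1 and 6 it was -0.02 with 6 of 12 lower. The mitochondrially encoded mt-Nd3, a subunit of respiratory complex I, was at 4299 ± 787 TPM (SD, n = 6) and 3158 ± 546 TPM (SD, n = 11), a difference of -0.45 (limma adjusted p = 0.263). No other of the 13 mitochondrially encoded genes reached an unadjusted p under 0.05 as deposited, and the share of all of them in the total was 11.5% ± 2.24 (SD, n = 6) and 11.1% ± 1.33 (SD, n = 11) (exact permutation p = 0.625). After median-ratio scaling 3 of the 13 reached an unadjusted p under 0.05 on the lower side, against 4.75% of all genes. Mcm3, a subunit of the replication helicase, and Mrap2, an accessory protein of melanocortin receptors, differed by -0.47 and -0.42.

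Several lists of neuronal surface receptors and channels had every member higher as deposited, but not after median-ratio scaling. All 9 adhesion receptors of the brain had a higher mean, against 76.8% of all genes, and 6 reached an unadjusted p under 0.05, against 11.9%. Their median was 0.30. After median-ratio scaling it was 0.19, with 8 of the 9 higher, where 8369 of the 16153 genes tested were higher. After that scaling 5 of the 9 reached an unadjusted p under 0.05, against 5.13% of all genes. Adgrl2, a latrophilin, differed by 0.60, Adgrl3, of the same group, by 0.33 and Adgrb1, which takes part in engulfment and synapses, by 0.30. Without untreated replicate 4 their median was 0.25 and 4 reached an unadjusted p under 0.05, against 7.05% of all genes.

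Ion channels of neurons showed the same direction, with more weight on single libraries. All 17 voltage-gated sodium and calcium channel genes had a higher mean, with a median of 0.19 and 5 at an unadjusted p under 0.05, against 76.8% and 11.9% of all genes. Without untreated replicate 4 the median was 0.09, with 12 of 17 higher and 3 at that level, against 7.05% of all genes. After median-ratio scaling it was 0.08, with 13 of 17 higher and 4 at that level, against 5.13% of all genes. As deposited without untreated replicates 1 and 6 it was 0.30, with all 17 higher. Cacna1g, a low-threshold calcium channel, was at 23.0 ± 9.86 TPM (SD, n = 6) and 37.3 ± 8.09 TPM (SD, n = 11), a difference of 0.75 (limma adjusted p = 0.237). All 15 ionotropic glutamate receptor genes had a higher mean, with a median of 0.17 and 4 at an unadjusted p under 0.05, beside the same 76.8% and 11.9%. Grin1, the obligatory NMDA receptor subunit, was at 143 ± 17.9 TPM (SD, n = 6) and 180.5 ± 19.8 TPM (SD, n = 11), a difference of 0.33 (limma adjusted p = 0.233). Without untreated replicate 4 this list's median was 0.10, with 12 of 15 higher, and without untreated replicates 1 and 6 it was 0.26. After median-ratio scaling it was 0.07, with 12 of 15 higher and 4 at an unadjusted p under 0.05, against 5.13% of all genes. The GABA-A and glycine receptor list, with a median of 0.11, lay near the median of all genes, and none of its 16 members reached an unadjusted p under 0.05. Without untreated replicate 4 this median was -0.02, with 10 of 16 lower, and without untreated replicates 1 and 6 it was 0.25, with 16 of 16 higher.

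Clock and blood genes formed a further pair of lists on the higher side. In the circadian clock list 17 of 18 genes had a higher mean, 8 reached an unadjusted p under 0.05 and the median was 0.23, where 76.8% of all genes were higher and 11.9% reached it. After median-ratio scaling 5 reached it, against 5.13% of all genes, and the median was 0.13. As deposited without untreated replicate 4, 5 reached it, against 7.05% of all genes, and the median was also 0.13. Per1, a repressor of the clock that is also induced by glucocorticoids, was at 12.4 ± 2.24 TPM (SD, n = 6) and 18.3 ± 4.43 TPM (SD, n = 11), a difference of 0.52 (limma adjusted p = 0.237). Per2 and Per3 differed by 0.42 and 0.37, Nr1d1, a repressor of Bmal1, by 0.36, and the output factor Dbp by 0.28. The activators Bmal1 and Clock differed by 0.23 and 0.06. The hour of tissue collection is not given in the labels. All 5 tested erythrocyte genes had a higher mean and reached an unadjusted p under 0.05, against 11.9% of all genes, with a median of 0.45. Hba-a2 ranged from 354 to 860.5 TPM in untreated and from 590 to 1086 TPM in gavaged libraries, a difference of 0.58 (limma adjusted p = 0.293), with reads that its near-identical copy Hba-a1 can share. After median-ratio scaling 1 of the 5 erythrocyte genes reached an unadjusted p under 0.05, against 5.13% of all genes. As deposited without untreated replicates 1 and 6, 3 of the 5 did, against 10.3%. Spliceosome genes had 20 of 25 means higher and 8 at an unadjusted p under 0.05 as deposited, beside 76.8% and 11.9% of all genes. After median-ratio scaling 2 of the 25 reached it, near the 5.13% of all genes.

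**Figure D3:**
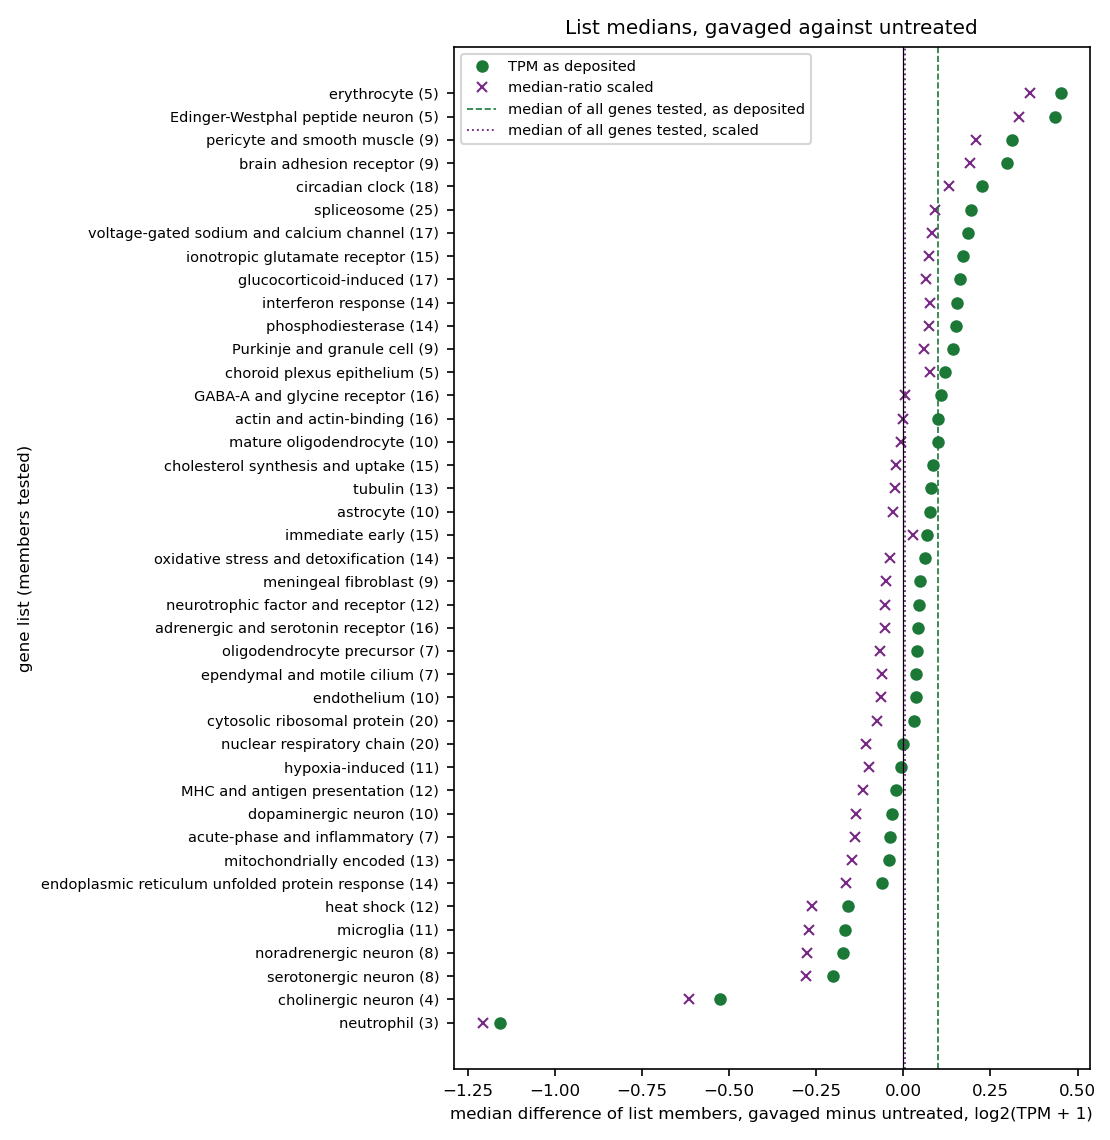
Median difference between gavaged and untreated libraries on the log2(TPM + 1) scale for each of 41 gene lists, as deposited (circles) and after median-ratio scaling (crosses), with vertical lines at the medians of all 16153 genes. The erythrocyte and Edinger-Westphal lists, at 0.45 and 0.44, lie farthest above the line of all genes (Edinger-Westphal 0.20 without untreated replicate 1), and the neutrophil and cholinergic lists lie farthest below it.

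Genes on the higher side were most numerous among those with GC-rich transcripts. When the tested genes with a known transcript (94.7%) were split into 5 equal bins by GC content, genes at an unadjusted p under 0.05 on the higher side numbered 138, 208, 313, 463 and 731 from the lowest bin to the highest. The median difference ran from 0.06 to 0.14, and after median-ratio scaling from -0.03 to 0.05. By transcript length the medians ran from 0.06 in the shortest bin to 0.13 in the longest, and the counts were 272, 362, 414, 421 and 384. Measured library by library, the slope of expression on GC content did not separate the arms, at -0.02 ± 0.08 (SD, n = 6) and 0.01 ± 0.07 (SD, n = 11) log2 units per 10 points of GC (exact permutation p = 0.348). The transcript of Adgrb2 is 63.1% GC and that of mt-Nd3 33.0%. When each library was centred within bins of GC content, no gene was called, and 51.3% of the 1499 genes at an unadjusted p under 0.05 were higher.

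**Figure D4:**
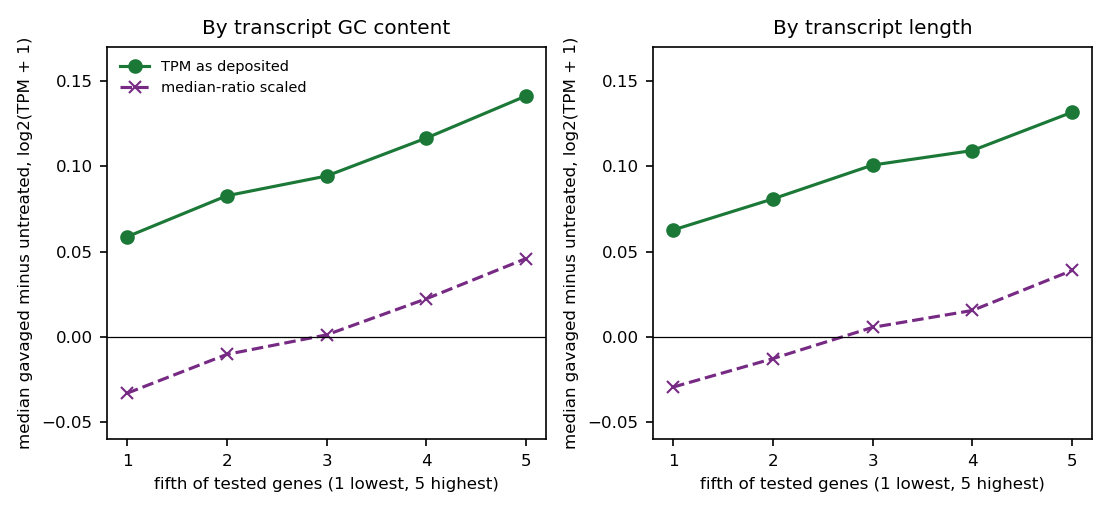
Median difference between gavaged and untreated libraries on the log2(TPM + 1) scale for 5 equal bins of the tested genes by transcript GC content (left) and transcript length (right), as deposited (circles) and after median-ratio scaling (crosses). All 4 lines climb from the lowest to the highest bin, by GC content from 0.06 to 0.14 as deposited.

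Both compounds were compared with each other as the 1 pair of the series, at the same dose and time. No gene passed the test for vindeburnol minus VB-127 among the 16153 genes (0%), and at an unadjusted p under 0.05 there were 144 genes higher (0.891%) and 402 lower (2.49%) after vindeburnol. The higher genes were 26.4% of these as deposited, 44.0% after median-ratio scaling and 49.4% after quantile normalization. For the genes described above the intervals of this difference were wide. That of Adgrb2 was -0.10 to 0.27 around 0.09, that of Chat -0.76 to 0.42 around -0.17 and that of Lcn2 -1.42 to 2.26 around 0.42. A difference that misses the threshold with such intervals does not show that the compounds act alike.

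The genes with the smallest p between the compounds, chosen by that p, differed in direction. Eml1, a microtubule-binding protein, was at 17.8, 27.6, 18.9, 28.5 and 22.9 TPM after vindeburnol, and after VB-127 its lowest, median and highest values were 32.4, 37.7 and 43.1 TPM. The untreated libraries, at 23.6 to 30.2 TPM, overlapped those of vindeburnol and lay below all those of VB-127. The compounds' libraries did not overlap, which held on the lower side for 0.285% of all genes. The difference was -0.69 (95% interval -0.94 to -0.44, limma adjusted p = 0.208). Npas3, a transcription factor of neurons, was at 8.28, 9.41, 9.11, 12.3 and 11.8 TPM after vindeburnol and at 4.73 to 7.23 TPM after VB-127. Here too the libraries did not overlap, which on the higher side held for 0.105% of genes, and the difference was 0.69 (95% interval 0.39 to 0.99, limma adjusted p = 0.802). Pmp22, a myelin protein of peripheral nerve, Ier2, an immediate early gene, and Ndnf, a secreted neuronal factor, differed by -0.53, -0.62 and -1.02. In the pooled comparison Eml1 differed by 0.12, Npas3 by 0.53 and Pmp22 by -0.01.

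Genes induced by glucocorticoids, the adrenal hormones of the stress response, showed the largest gap between the compounds of the 41 lists by number of members. Of the 17 genes, 14 reached an unadjusted p under 0.05 for vindeburnol minus VB-127, against 3.38% of all genes, all of them higher after vindeburnol. The median difference between the compounds was 0.55, from a median of 0.41 for vindeburnol and -0.07 for VB-127, each against the same untreated libraries. Sgk1, a kinase that regulates ion transport, was at 175, 76.7, 146, 83.5 and 49.3 TPM after vindeburnol. After VB-127 its lowest and highest values were 21.3 and 82.99 TPM, and in untreated libraries 23.1 and 56.6 TPM. The difference between the compounds was 1.28 (95% interval 0.45 to 2.12), and for the cell cycle inhibitor Cdkn1a it was 1.597 (95% interval 0.69 to 2.50). Mt2, a metal-binding protein, was at 720 ± 172 TPM (SD, n = 5) after vindeburnol and 486 ± 63.5 TPM (SD, n = 6) after VB-127, with no overlap. None passed the test over all genes (limma adjusted p near 1.00 for each).

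Vindeburnol replicates 1 and 3 stood highest for this list. The mean level of the list, in log2(TPM + 1), was 5.56 and 5.40 in them and 4.75, 4.82 and 4.43 in the other vindeburnol libraries. In VB-127 libraries it ran from 4.22 to 4.66 and in untreated libraries from 4.03 to 4.85, so the other vindeburnol libraries lay within the range of untreated ones. Without replicate 1 alone 7 of the 17 reached an unadjusted p under 0.05, against 2.67% of all genes. Without replicate 3 alone 9 did, against 3.06%. Without replicates 1 and 3, a choice made after the data were seen, 3 of 17 reached it, against 1.84% of all genes. In that setting 16 of 17 were higher after vindeburnol and the median difference between the compounds was 0.21. In the pooled comparison the list's median was 0.16, with 2 of 17 genes, Per1 and Nfkbia, at an unadjusted p under 0.05 on the higher side, the same share as the 11.9% of all genes. The pooled median was 0.08 without vindeburnol replicate 1, 0.10 without replicate 3 and 0.00 without both. It was 0.05 without untreated replicate 4 and 0.27 without untreated replicates 1 and 6.

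**Figure D5:**
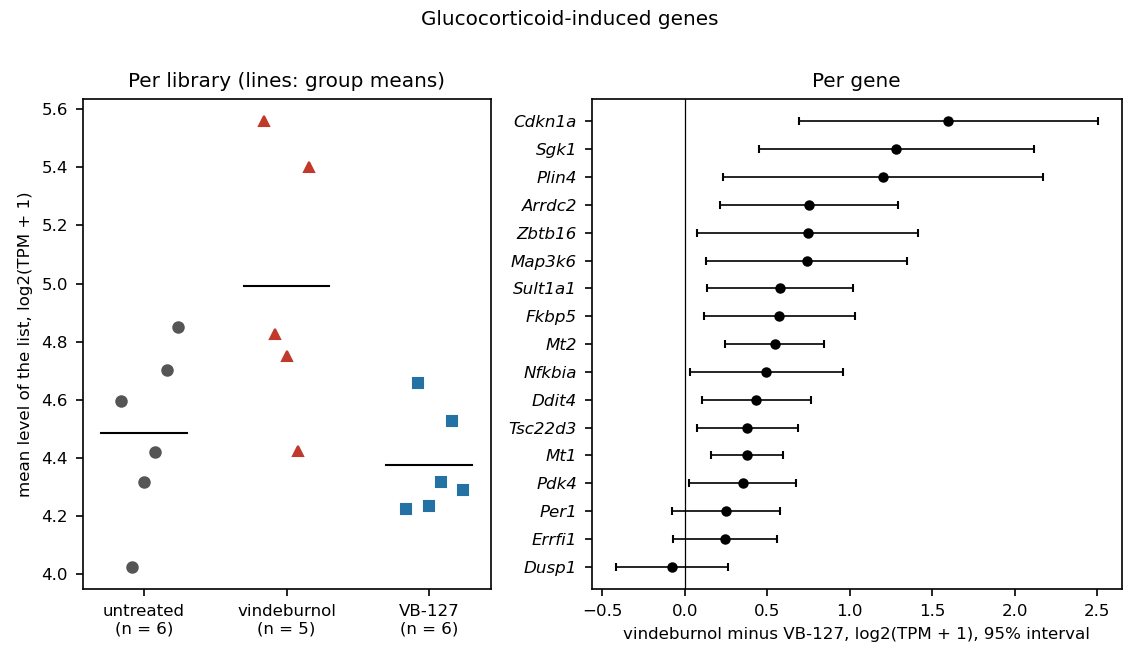
Left, the mean level of 17 glucocorticoid-induced genes in log2(TPM + 1) for each untreated (n = 6), vindeburnol (n = 5) and VB-127 library (n = 6), with a line at each group mean. Right, the difference between vindeburnol and VB-127 per gene with its 95% interval, from 1.597 for Cdkn1a to -0.08 for Dusp1, and vindeburnol replicates 1 and 3 lie highest on the left at 5.56 and 5.40.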

How the data were processed

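RNA from brain tissue was sequenced as poly(A) libraries with a strand-keeping kit, per the labels' protocols. Reads were processed with STAR and Salmon on GRCm39, per the submitters' processing notes; roles and versions, and whether strand was used in counting, are not given in the sources used here. The authors deposited TPM, which keeps no depth, for 78298 genes in each of 17 libraries. Values were analysed as log2(TPM + 1), so folds of low genes are understated. Genes with at least 1 TPM in at least 5 libraries (16153) were fitted with limma 3.58.1 in R 4.3.3 (moderated by eBayes, trended and robust, two-sided, Benjamini-Hochberg adjustment), with 2 arms for the pooled comparison and 3 groups for the compounds. Per-library measures were compared by a two-sided exact permutation test over 12376 assignments. The fit was tested on simulated data.

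Named genes were, by smallest p, 12 in each direction, 2 members of each of 41 lists and 5 genes between the compounds, and also up to 6 genes per direction with the widest gap between arms. Except for list members, they averaged 2 TPM or more and had no predicted or clone symbol. Other list members and Rnf31 were named after their values were seen. The members and lists were chosen with earlier results of these data known. GC content and length came from GENCODE M21 transcripts matched by gene identifier, and no coordinates were taken from it. Median-ratio scaling divides each library by its median ratio to the geometric means of genes. Other alternatives covered the pseudocount, filter, other scalings, library weights, moderation, covariates and each library left out. GC-binned scaling and the list counts without single libraries were added after seeing the data.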

Additional observations from a re-analysis of the deposited data

Results flagged for a closer look

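Within each group, named genes and library measures were checked for a library set far apart from its group by Dixon's ratio at the 95% level. Chance does this in about 1 in 20 groups, and 24 of 318 checks (7.55%) did so.

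Untreated replicate 1 was low for Actb at 444 TPM, Kyat1 at 8.16 TPM and Cartpt, a peptide of Edinger-Westphal neurons, at 17.6 TPM. Untreated replicate 4 was low for Ntng2 at 9.43 TPM, Slc8a2 at 9.59 TPM, Dhcr7 at 15.9 TPM, Pde4a at 24.5 TPM, Htr2c at 24.1 TPM and Pdgfra at 7.26 TPM. Its genes lay at a median of -0.31 relative to each gene's median over all libraries. Of the genes without overlap between arms, Chpf was not checked, and Actb, Kyat1, Ntng2 and Slc8a2 had 1 low untreated library. Untreated replicate 5 was high for Sbf1 at 99.9 TPM.

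Among vindeburnol libraries, replicate 4 was high for Dbh at 1.72 TPM, replicate 2 for Snrpe at 81.9 TPM and Nr4a1 at 13.1 TPM, replicate 1 for Myh11 at 6.78 TPM, and replicate 5 for Cnp at 479 TPM and Gsta4 at 167 TPM. Replicate 3 was low for Tapbp at 17.7 TPM.

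Among VB-127 libraries, Sharpin was low at 38.2 TPM in replicate 4, Sdf2l1 at 16.2 TPM in replicate 1 and Tie1 at 5.84 TPM in replicate 2. Snrpe was high at 82.6 TPM in replicate 2, Hilpda at 7.54 TPM in replicate 3 and Col1a1 at 3.92 TPM in replicate 6.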

How the results depend on the processing

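The pooled call of Actb was lost (0 genes called) with no expression filter (limma adjusted p = 0.127), median-ratio scaling (0.411), quantile normalization (0.135), TPM recomputed without Bc1 and mitochondrial genes (0.309), eBayes without trend or robust moderation (0.259), 3 groups in the fit (0.0522), covariates of dopaminergic, serotonergic and oligodendrocyte content (0.0916), GC-binned scaling (0.340) and without vindeburnol replicates 1 and 3 (0.118). Without untreated replicates 1 and 6, 2 genes were called, Actb and Cln8. Leaving out 1 library gave 0 to 2 calls: Actb was lost without untreated replicate 2 or 3, vindeburnol replicate 1, 3, 4 or 5, or VB-127 replicate 1, 3 or 5, with adjusted p-values from 0.0555 to 0.133 for these. Over all 32 alternatives its difference stayed between 0.25 and 0.38. Genes at an unadjusted p under 0.05 numbered 1323 to 2543 with 1 library left out, the lowest without untreated replicate 4. Genes without overlap numbered 29 without untreated replicates 1 and 6, 32 without vindeburnol replicates 1 and 3, and 7 to 32 with 1 library left out; fewer libraries make separation easier.

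Same-numbered libraries of different groups did not deviate together (correlations of -0.20 to 0.11, 1 of 16 above 0.1). These correlations give no sign of pairing by number, but they cannot show that equal numbers were not handled together. With a replicate block 0 genes were called (Actb adjusted p = 0.137) and 1735 reached an unadjusted p under 0.05.

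Between the compounds no alternative gave a call. Genes at an unadjusted p under 0.05 numbered 1254 without a filter, 297 at 5 TPM or more, 1100 with library weights, 298 without vindeburnol replicates 1 and 3, and 430 to 835 with 1 library left out. The mitochondrial share differed by -0.424 percentage points and turned to 0.229 without untreated replicate 6 (-1.01 to 0.229 with 1 library left out) and 0.739 without untreated replicates 1 and 6, where the GC slope turned to -0.00853.

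Of the named genes, 22 values changed sign, in Tubb2a, Rps12, Rplp1, Ndnf and Pmp22, and the cause was not tested. After median-ratio scaling Tubb2a, Rps12 and Rplp1 were at -0.0130, -0.0400 and -0.0432, and after GC-binned scaling at -0.0303, -0.0114 and -0.0765. Rps12 and Rplp1 were at -0.0166 and -0.0198 without Bc1 and mitochondrial genes, and at -0.00544 and -0.00994 without untreated replicates 1 and 6. Ndnf turned to 0.105 with library weights and 0.0513 without vindeburnol replicates 1 and 3. Pmp22 turned to 0.0503 with library weights, 0.0308 with the replicate block, 0.0215 without untreated replicates 1 and 6 and 0.0629 without vindeburnol replicates 1 and 3, and ran from -0.0702 to 0.0748 with 1 library left out.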

Other observations

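A different set of genes separated the arms when each library was scaled to its median gene. After median-ratio scaling 9 genes did not overlap, 5 higher (0.031%) and 4 lower (0.0248%) in the gavaged libraries, and 1 of them, Ntng2, was among the 7 without scaling. The other higher genes were Vwa8, a mitochondrial ATPase, Ints1, Ppp1r13b, a partner of p53, and Carm1, an arginine methyltransferase. The lower ones were Hsp90b1, the Hsp90 of the endoplasmic reticulum, Snx10, Tpd52 and Exo5. Hsp90b1 was at 206 ± 20.8 TPM (SD, n = 6) and 182 ± 25.5 TPM (SD, n = 11), a difference of -0.18 as deposited and -0.29 after scaling, with a limma adjusted p of 0.198 after scaling. These genes were named after their values were seen.

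Some lists of abundant housekeeping genes lay below the median of all genes, which was 0.10. Cytosolic ribosomal protein genes had a median difference of 0.03 and -0.07 after median-ratio scaling, or -0.05 as deposited without untreated replicates 1 and 6, with none of 20 at an unadjusted p under 0.05. Nuclear genes of the respiratory chain had medians of 0.00 and -0.11, with 10 of 20 lower as deposited. Among mural cells of blood vessels, pericyte and smooth muscle genes had 8 of 9 means higher, where 76.8% of all genes were higher, and a median of 0.31 that was 0.15 without untreated replicate 1 or without untreated replicate 2. Their summed level was 81.1 to 200 TPM in untreated and 153 to 234 TPM in gavaged libraries. Peptide genes of the Edinger-Westphal nucleus had a median of 0.44 over 5 genes, 0.20 without untreated replicate 1, 0.25 without untreated replicate 6 and 0.17 without both, and Cartpt was at 17.6 TPM in untreated replicate 1 against 131 to 225 TPM in the other untreated libraries.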
